A study of Orbicella faveolata with 18 samples.

Results

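A set of 92 cDNA clones was followed whose signal stepped up with temperature in 48-hour-old embryos of the reef-building coral Montastraea faveolata, first from 27.5°C to 29.0°C and again from 29.0°C to 31.5°C. The clones were chosen from the deposited values of 1218 clones, of which 1099 had a value on at least 2 of 3 arrays in each condition. A clone was kept where both steps of its mean log2 ratio after 48 hours were at least 0.1 and where its mean at 27.5°C differed by no more than 0.8 between 48 and 12 hours. These thresholds were met by 96 clones, and 4 of them were set aside because they belong to a group of 9 clones that are not described here. The values after 48 hours therefore chose the clones and are given as a description. Apart from the filter on arrays, the values of both warmer conditions after 12 hours played no part in the choice. Those at 27.5°C after 12 hours entered it, beyond that filter, only through the window on the change over time.

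Coral embryos of this species are free of the symbiotic algae that adult colonies house, so their transcripts come from the animal alone. Warming of a cell typically unfolds proteins and raises the load of damaged molecules, and the usual answers are chaperones, removal of damaged proteins through ubiquitin and the proteasome, defence against reactive oxygen, and a change in the rate of protein synthesis. In an embryo these answers run beside the programme of development, and temperature can also shift the speed of that programme. In embryos of slightly later times, the study could tell no developmental difference between these temperatures by shape. It held that changes without a visible sign probably exist.

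Eggs and sperm from multiple colonies were fertilized at a temperature between the middle and the warmest condition, and embryos were moved to 27.5, 29.0 or 31.5°C shortly afterwards. Embryos from separate containers of a temperature were combined into 1 sample at 12 and at 48 hours after fertilization, and the RNA of that sample was hybridised on 3 technical arrays, 18 arrays over 6 RNA samples. Sample RNA carried Cy5 and a pooled coral reference carried Cy3 on every array, and no dye swap was made. The pool is described as 4 time points in the labels and as all samples in the methods. The source names give other temperatures in whole degrees, and those of the titles and methods are used here. A difference between temperatures thus sets a single RNA sample against a single other one, and its error holds the scatter of technical arrays but not that of cultures. In pooled embryos, fewer cells that hold a transcript and less of the transcript per cell cannot be told apart, nor can a direct change with temperature and a change in the pace of development.

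The arrays of 27.5°C after 12 hours were the weakest of the series, with 1616 to 2067 spots of positive intensity and background in both channels against 2583 to 3365 on the other arrays, and they lacked 79 to 241 of the clones against at most 26 elsewhere. Replicate 1 of 27.5°C after 12 hours, replicate 1 of 31.5°C after 12 hours and replicate 1 of 29.0°C after 48 hours correlated least with the other arrays of their condition (Pearson's r of 0.58 to 0.70 across clones, which are not independent replicates). The image headers of replicates 1 and 2 of 27.5°C after 12 hours name another operator and file version than the other arrays. Array medians over all clones stayed between -0.08 and 0.05 on the log2 scale. The median technical SD of a clone was 0.20 for the 92 clones and 0.20 for all 1099. For each clone, 1 linear model over the 6 conditions gave a 95% interval for each mean, and a clone was called where the intervals of both conditions did not overlap. The distances from each mean to the edge of its interval add up to what is called the limit below, and only a larger difference is called. The median limit was 0.52 for the 92 clones and 0.50 for all 1099.

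After 48 hours, the 92 clones ran from a median log2 ratio of -0.21 at 27.5°C through -0.03 at 29.0°C to 0.28 at 31.5°C. The arrays of 27.5°C had medians over these clones of -0.18, -0.15 and -0.26, those of 29.0°C -0.11, 0.01 and 0.00, and those of 31.5°C 0.32, 0.29 and 0.27. The medians of the 3 temperatures did not overlap between arrays, as the rule would have it. The first step had a median of 0.18 (0.10 to 1.16) and the second a median of 0.26 (0.10 to 1.04). Over the full range from 27.5°C to 31.5°C the median rise was 0.50 on the log2 scale, or 1.41-fold, and single clones ranged from 1.16-fold to 4.59-fold. The rise was above 1.5-fold in 28 clones and above 2-fold in 3. The second step was the larger in 59 of the 92 clones, and the first step made up a median of 43.9% of the rise (12.7% to 78.0%).

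Most of these steps were small against the technical error. Of the 92 clones, 35 met the interval criterion as higher at 31.5°C than at 27.5°C (8.64% of all tested clones did), 6 as higher at 29.0°C than at 27.5°C (2.64% of all) and 11 as higher at 31.5°C than at 29.0°C (6.92% of all). An error from the compared arrays only gave 80, 8 and 21 calls in the same order (22.2%, 3.55% and 8.1% of all). These shares follow from the rule and are read no further. The 6 calls on the first step became 3 when replicate 1 of 27.5°C (1.73% of all) or replicate 3 of 29.0°C (2.37% of all) after 48 hours was left out. They became 2 when replicate 2 of 27.5°C was (1.91% of all). The 11 calls on the second step became 5 when replicate 2 of 31.5°C after 48 hours was left out (4.28% of all). They became 21 and 18 when replicate 1 of 27.5°C and replicate 1 of 31.5°C after 12 hours were (9.55% and 9.1% of all). Among the 80 clones with values on all arrays, the 3 arrays of 31.5°C lay above the 3 of 27.5°C in all 80 (34.6% of all clones measured on every array), above those of 29.0°C in 48 (25.1%), and those of 29.0°C above those of 27.5°C in 24 (11.7%). In 34 clones the smaller step was under 0.15. Without replicate 2 of 29.0°C after 48 hours the rule kept 55 clones, and without any other single array it kept 73 to 105.

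At the edge of the rule, AOSF938 and CAON1091 had first steps of 0.102 and 0.103, while AOSB1111 and CAOO714 stayed outside with 0.0977 and 0.0901. For the second step, CAON1249 and AOSF707 were inside with 0.102 and 0.105, and CAON1307 and CAON847 were outside with 0.0975 and 0.0922. On the change over time at 27.5°C, AOSF757 and CAON1369 were inside with 0.795 and -0.794, and CAON1782 and AOSF869 were outside with -0.804 and -0.815. In size, the values on either side of a threshold differed by far less than the median technical SD.

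**Figure D1:**
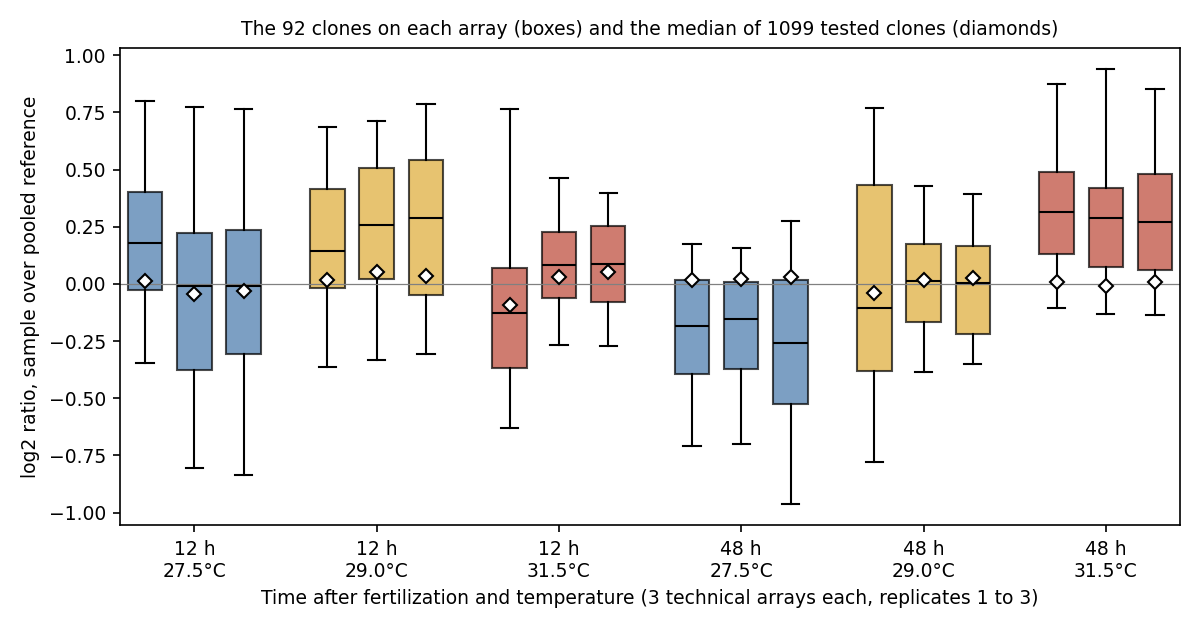
Log2 ratios of the 92 clones on each of the 18 arrays, grouped by time after fertilization and temperature, with replicates 1 to 3 from left to right. Boxes give the quartiles with the median as a line, whiskers run from the 5th to the 95th percentile, and diamonds mark the median of all 1099 tested clones. The boxes climb from 27.5°C to 31.5°C after 48 hours, which is what the rule chose, while after 12 hours the medians of the 29.0°C arrays lie above those of the 31.5°C arrays.

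After 12 hours, the same clones did not form a graded rise. Their mean was highest at 29.0°C in 56 of 92 clones (60.9%, against 33.5% of all tested clones), at 27.5°C in 22 and at 31.5°C in 14. The median over the 92 clones was 0.18, -0.01 and -0.01 on the arrays of 27.5°C, 0.14, 0.26 and 0.29 on those of 29.0°C, and -0.13, 0.08 and 0.09 on those of 31.5°C. The arrays of 29.0°C lay above those of 31.5°C throughout, and they overlapped those of 27.5°C through its replicate 1. The median difference between 29.0°C and 27.5°C was 0.16 over the 92 clones and -0.02 over all tested clones, and 65 of the 92 were above 0. With replicate 3 alone for 27.5°C, the only array of that condition with the same operator as the others, it was 0.20, an alternative chosen after seeing the data. Between 31.5°C and 27.5°C it was -0.03 over the 92 clones and -0.02 over all, with 42 above and 50 below 0. Of the 80 clones measured on every array, 19 had all arrays of 29.0°C above all arrays of 27.5°C (14.8% of all clones measured on every array) and 9 had them below (17.1% of all). For 31.5°C and 27.5°C these counts were 7 above (12.1% of all) and 9 below (11.5% of all).

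The comparison of 31.5°C with 29.0°C after 12 hours used no ratios that chose the clones, and its arrays entered the choice only through the filter. Here the median difference was -0.22 over the 92 clones and -0.01 over all tested clones, and 69 of the 92 were below 0. Of the 80 clones measured on every array, 33 had all arrays of 31.5°C below all arrays of 29.0°C (22.9% of all clones measured on every array) and 6 had them above (21.8% of all). By the interval criterion 7 of 92 were called lower (7.61%, against 7.01% of all tested clones), close to the background, and 1 was called higher (1.09%, against 10% of all), a smaller share than the background. That 1 clone is AOSF397, named after its value was seen, with 0.49 against a limit of 0.25. Leaving out replicate 1 of 31.5°C, the array of that condition with the lowest correlations, gave a median difference of -0.14. It left 35 clones with all arrays below, a count that cannot fall when an array is left out. The order after 48 hours, with 31.5°C above 29.0°C in every one of the 92 clones, was thus not present after 12 hours, when 23 of them had that order.

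**Figure D2:**
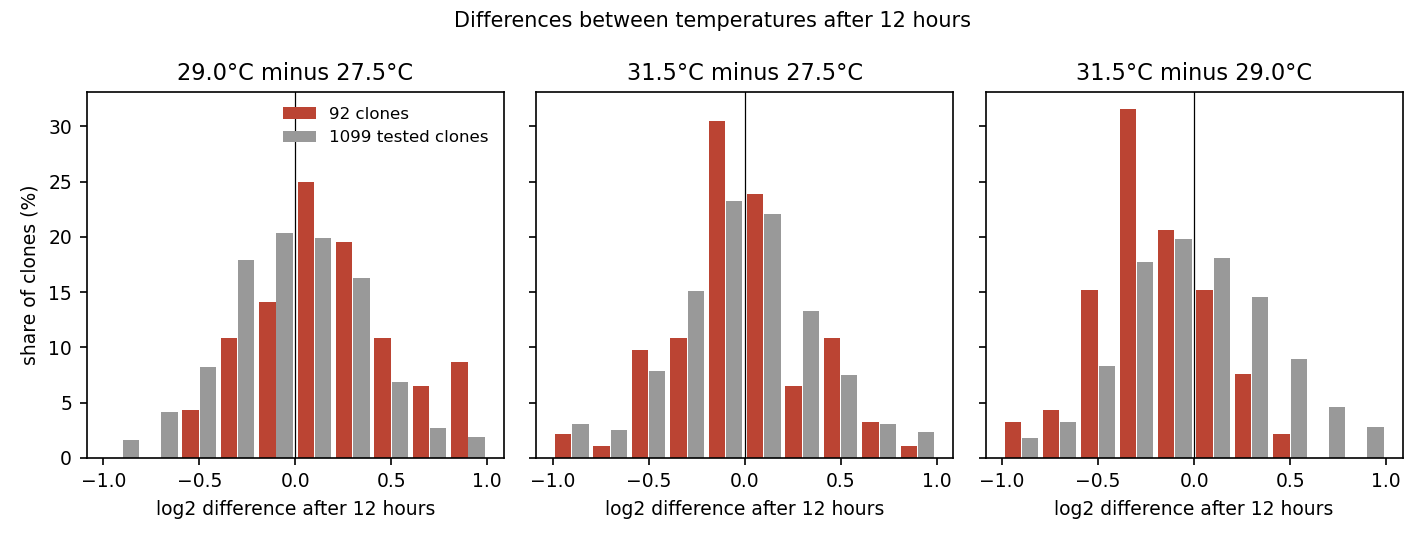
Share of clones by log2 difference after 12 hours in bins of 0.2, for the 92 clones (red) and all 1099 tested clones (grey), with larger differences counted in the outermost bins. The red bars lie to the right for 29.0°C minus 27.5°C (median 0.16), around 0 for 31.5°C minus 27.5°C (median -0.03) and to the left for 31.5°C minus 29.0°C (median -0.22).

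Where both 12-hour steps were at least 0.1 in size, a peak at 29.0°C was the commonest course, with 41 of 92 clones (44.6%, against 23.9% of all tested clones). A trough at 29.0°C was found in 8 (8.70% against 24.8%), a graded fall in 7 (7.61% against 8.64%) and a graded rise in 4 (4.35% against 7.01%), while the remaining 32 had at least 1 smaller step (34.8% against 35.6%). The 4 clones with a graded rise at both time points, picked out after their values were seen, are AOSF1198, AOSF1323, AOSF757 and CAON1091. Of these, AOSF757 alone met the interval criterion between 31.5°C and 27.5°C after 12 hours. The share of clones with a graded rise after 12 hours was no higher among the 92 clones than among all tested clones.

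The opposite set was compared in the same way, namely the 67 clones that met the same thresholds downwards after 48 hours. They were lowest at 29.0°C after 12 hours in 35 of 67 (52.2%, against 34.8% of all tested clones), with a median difference of -0.18 between 29.0°C and 27.5°C and of 0.16 between 31.5°C and 29.0°C. The clones that fell with warmth after 48 hours therefore had the mirror image of the 92 clones after 12 hours. Both sets share the arrays of every condition, so their medians are not independent of each other.

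**Figure D3:**
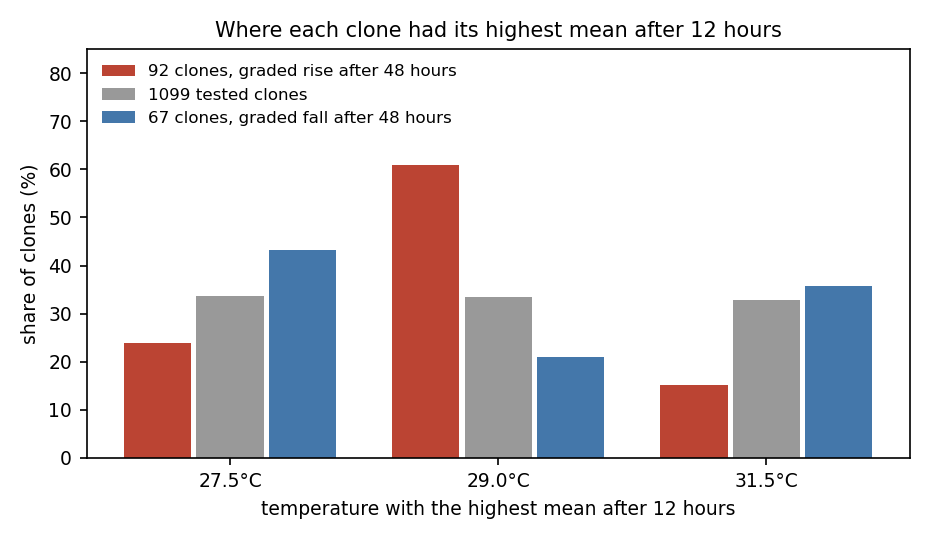
Share of clones with their highest mean after 12 hours at each temperature, for the 92 clones with a graded rise after 48 hours (red), all 1099 tested clones (grey) and the 67 clones with a graded fall (blue). Of the 92 clones, 60.9% peaked at 29.0°C, against 33.5% of all tested clones.

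In single clones, the interval criterion after 12 hours was met by 28 of the 92 clones in at least 1 comparison (30.4%, against 33.5% of all tested clones). Between 29.0°C and 27.5°C, 16 clones were higher (6.82% of all tested clones were) and 4 were lower (11.1% of all). After scaling of the arrays to a common spread, these became 10 higher (3.46% of all) and 5 lower (7.55% of all). Between 31.5°C and 27.5°C, 8 were higher (7.46% of all) and 8 lower (9.28% of all), which is close to the background in both directions. The 8 clones called higher at 31.5°C were all called higher at 29.0°C as well. Both comparisons share the arrays of 27.5°C, the weakest of the series. This overlap was not counted over all tested clones, so nothing is read from it. The counts moved with single arrays, and the 16 higher clones became 26 when replicate 1 of 27.5°C was left out (9.65% of all tested clones then) and 10 when replicate 2 of 29.0°C was (4.91% of all). The 4 lower clones became 7 when replicate 1 of 27.5°C was left out (14% of all) and 2 when replicate 1 of 29.0°C was (7.92% of all). Between 31.5°C and 27.5°C, the higher clones became 5 when replicate 3 of 27.5°C (6.1% of all) or of 31.5°C (6.37% of all) was left out. The lower clones became 5 when replicate 1 of 31.5°C was (6.46% of all). Between 31.5°C and 29.0°C, the 7 lower clones became 13 when replicate 1 of 27.5°C was left out (10% of all) and 4 when replicate 1 of 31.5°C was (5.19% of all). They became 11 when replicate 1 of 29.0°C after 48 hours was left out (8.19% of all), since all arrays share 1 spread per clone. After scaling of the arrays to a common spread they became 2 (4% of all). The shares of all tested clones thus moved with the same arrays.

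Over all 6 conditions, 44 of the 92 clones were highest at 31.5°C after 48 hours and 35 were highest at 29.0°C after 12 hours. Of the 92 clones, 58 were lowest at 27.5°C after 48 hours. The rule itself fixed the order of the temperatures after 48 hours. The order over all 6 conditions was not counted over all tested clones, so nothing is read from these counts. From 12 to 48 hours the clones had a median change of -0.31 in embryos kept at 27.5°C, of -0.27 in those at 29.0°C and of 0.27 in those at 31.5°C, against 0.00, -0.03 and 0.04 over all tested clones. At 27.5°C 70 clones were lower after 48 hours than after 12 hours, at 29.0°C 61 were, and at 31.5°C 21 were. Of these, the change at 27.5°C was bounded by the rule, and all of the 48-hour values were used by it.

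The annotation of the clones comes from the study's lists of clones that differed between temperatures, so an annotation was at hand only for clones that differed in the study. Of the 92 clones, 46 stood in these lists, of which 9 carried a protein name, 6 were predicted or hypothetical proteins and 31 had no annotation. A protein name was given to 9.78% of the 92 clones and to 21.2% of all tested clones. By the prefix of the identifier, whose meaning is not given in the sources used here, the 92 clones spread over 40 AOSF, 31 CAON, 12 AOSC, 6 AOSB and 3 CAOO clones. The tested clones with these prefixes numbered 501, 296, 135, 75 and 91.

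Among the named clones, the signalling peptide precursor was LWamide neuropeptides (CAON1226), whose mature peptides trigger metamorphosis in larvae of the hydroid Hydractinia. After 12 hours its log2 ratio was -0.31 and -0.55 on the 2 arrays of 27.5°C that measured it, 0.10, -0.04 and 0.09 at 29.0°C, and -0.29, -0.12 and -0.11 at 31.5°C. The arrays of 29.0°C lay above those of both other temperatures. The difference between 29.0°C and 27.5°C was 0.48, above its limit of 0.30, and between 31.5°C and 27.5°C it was 0.26 and below the limit. When the error came from the compared arrays only the first of these was no longer called. At 48 hours the ratios were 0.03, 0.15 and -0.05 at 27.5°C, 0.37, 0.19 and 0.27 at 29.0°C, and 0.55, 0.37 and 0.55 at 31.5°C. Both steps were of nearly the same size, with 0.23 and 0.22. Within the signalling list of the study, with 8 tested clones, CAON1226 was the only clone of the 92 and the only one called higher at 29.0°C after 12 hours.

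Ribosomal protein S5 (CAON1341), a component of the small ribosomal subunit, moved against the median of its list after 12 hours. At 12 hours the values were -0.18 and -0.21 on the 2 arrays of 27.5°C that measured it, at 0.69, 0.51 and 0.66 at 29.0°C, and at 0.05, 0.03 and -0.26 at 31.5°C. It rose by 0.81 at 29.0°C (limit 0.51), and the difference between 31.5°C and 29.0°C was -0.68 (limit 0.45). After scaling of the arrays to a common spread the same differences were 0.54 and -0.49, and neither was called. Of the 50 tested clones in the list of translation and ribosomes, 26 were lower and 2 were higher at 29.0°C after 12 hours, with a median of -0.46. The other higher clone was 60S ribosomal protein L23 (CAOO2477), at 0.54. Between 31.5°C and 29.0°C 24 of the 50 were higher and 4 were lower, with a median of 0.52. After 48 hours S5 stood at -0.57, -0.41 and -0.07 at 27.5°C, 0.12, -0.30 and -0.22 at 29.0°C, and 0.35, 0.07 and 0.28 at 31.5°C. The upward direction of S5 after 48 hours was fixed by the rule, so its contrast with the list there is not read as a result. Its rise of 0.58 over the full range was the only call upwards in the list. At 31.5°C 43 of the 50 clones were called lower (14.6% of all tested clones were). Without replicate 1 of 27.5°C after 48 hours that rise was 0.48 and was not called, nor was it called when the error came from the compared arrays only. The study put clones into its lists because they differed in these samples, so the counts are no independent evidence of a direction.

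ATP-dependent RNA helicase (CAON739) belongs to a family that unwinds RNA with the energy of ATP. After 12 hours its ratios were 0.79, -0.19 and 0.17 at 27.5°C, -0.01, 0.23 and 0.36 at 29.0°C, and 0.06, 0.08 and 0.08 at 31.5°C. All 3 temperatures overlapped, and no difference passed the limit of 0.66. By 48 hours it stood at -0.45, -0.39 and -0.60 at 27.5°C, -0.69, -0.04 and -0.24 at 29.0°C, and 0.25, 0.19 and 0.08 at 31.5°C. The difference of 0.65 over the full range came close to that limit without passing it.

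Ubiquitin carboxyl-terminal hydrolase 24 (AOSF560), an enzyme that takes ubiquitin off proteins, changed direction between the time points. After 12 hours the ratios were 0.34, 0.85 and 0.66 at 27.5°C, 0.53, 0.63 and 0.68 at 29.0°C, and -0.16, 0.15 and 0.16 at 31.5°C. Every array of 31.5°C was below every array of both cooler temperatures, which overlapped each other. The clone was called lower at 31.5°C than at 27.5°C, with a difference of -0.57, and than at 29.0°C, with -0.56, against a limit of 0.36. When the error came from the compared arrays only the first of these was no longer called. Its ratios after 48 hours were -0.09, -0.06 and -0.13 at 27.5°C, 0.10, 0.25 and 0.16 at 29.0°C, and 0.36, 0.58 and 0.51 at 31.5°C. The rise over the full range was 0.58, or 1.49-fold. In the study's list of proteolysis and protein degradation, 16 clones were tested, and AOSF560 was the only one among the 92. At 31.5°C after 12 hours, 3 of these 16 clones were lower than at 27.5°C, AOSF560 among them, and 3 were higher.

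Cytochrome c (AOSC785) carries electrons in the mitochondrial respiratory chain and triggers apoptosis when it leaves the mitochondrion, and the study listed it under the response to oxidative stress. After 12 hours its ratios were 0.41, -0.23 and -0.23 at 27.5°C, 0.04, 0.08 and 0.40 at 29.0°C, and -0.02, 0.01 and -0.16 at 31.5°C. The arrays overlapped and no difference was called. At 48 hours the values were -0.14, -0.09 and -0.30 at 27.5°C, -0.19, 0.17 and 0.12 at 29.0°C, and 0.32, 0.36 and 0.46 at 31.5°C. The full rise of 0.56 passed the limit of 0.50, but not without replicate 1 or 3 of 27.5°C or without any one array of 31.5°C after 48 hours, when it was 0.50 to 0.59 against a wider limit, nor with the replicate number as a block. It was the only one of the 92 clones among the 12 tested clones of that list. At 31.5°C after 48 hours, 5 of these 12 were called higher and 5 lower (8.64% and 14.6% of all tested clones).

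Glyoxylate reductase (AOSB445), which reduces glyoxylate to glycolate, was the only one of the 92 clones in the metabolism list. The arrays of 12 hours gave -0.01, 0.07 and -0.06 at 27.5°C, 0.42, 0.51 and 0.40 at 29.0°C, and 0.04, 0.12 and 0.24 at 31.5°C. The arrays of 29.0°C were above all others, and the difference of 0.44 from 27.5°C passed the limit of 0.37. That call was lost without replicate 3 of 27.5°C or replicate 2 of 29.0°C (0.41 in both cases), after scaling of the arrays to a common spread (0.28) and with replicate 3 alone for 27.5°C (0.51). At 48 hours the ratios were -0.06, -0.13 and -0.07 at 27.5°C, -0.32, 0.28 and 0.15 at 29.0°C, and 0.61, 0.82 and 0.68 at 31.5°C. Nearly all of the rise of 0.79 lay in the second step, the first being 15.8% of it. At 29.0°C the replicate that correlated least with the others, replicate 1, was also the lowest. Of the 13 tested clones of the metabolism list, AOSB445 was the only one called higher at 31.5°C after 48 hours, a direction that the rule fixed. In that list 6 clones were called lower (14.6% of all tested clones were).

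A pair of named clones stands in the study's transport list. Integral membrane transporter protein (CAON1001) had ratios after 12 hours of 0.64, 0.13 and 0.06 at 27.5°C, 0.04, 0.32 and 0.20 at 29.0°C, and -0.79, -0.42 and -0.07 at 31.5°C. All arrays of 31.5°C lay below those of the cooler temperatures, and the difference of -0.70 from 27.5°C just reached beyond the limit of 0.70. The call was lost without any one of 14 of the 18 arrays (-0.78 to -0.52), the exceptions being replicate 3 of 27.5°C and of 31.5°C after 12 hours and replicates 1 and 2 of 29.0°C after 48 hours. The arrays of 48 hours gave -0.40, -0.55 and -0.40 at 27.5°C, -0.78, 0.12 and -0.18 at 29.0°C, and -0.07, 0.01 and -0.05 at 31.5°C, a rise of 0.41 that was not called.

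ATP-binding sub-family F member 3 (CAON1224) belongs to a family with ATP-binding domains and no membrane-spanning part, although the study listed it under transport. After 12 hours it stood at 0.54, 0.40 and 0.41 at 27.5°C, 0.15, 0.29 and 0.28 at 29.0°C, and 0.21, 0.34 and 0.54 at 31.5°C. The arrays of 29.0°C were below those of 27.5°C, yet the difference of -0.21 stayed within the limit of 0.31. After 48 hours it stood at -0.13, -0.34 and -0.09 at 27.5°C, -0.15, 0.09 and -0.01 at 29.0°C, and 0.28, 0.20 and 0.02 at 31.5°C. The full rise of 0.35 passed the limit, but not without replicate 2 of 27.5°C, replicate 1 of 31.5°C or replicate 2 of 31.5°C after 48 hours (0.28 to 0.34), nor when the error came from the compared arrays only.

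None of the 14 tested clones listed under the response to stress, the 13 under electron transport or the 6 under apoptosis was among the 92, not counting the clones set aside. The 92 clones were a small part of the 1099 tested clones. In lists this short, a count of none or of 1 is therefore not read as a result, here or for the lists above. The last of the named clones was annotated as Surface antigen (AOSF1157). After 12 hours its ratios were 0.54 and 0.36 on the 2 arrays of 27.5°C that measured it, 0.16, 0.26 and -0.10 at 29.0°C, and -0.20, 0.01 and -0.18 at 31.5°C. Both warmer temperatures lay below 27.5°C on every array, with differences of -0.34 at 29.0°C and -0.58 at 31.5°C against a limit of 0.33. The second of these held in every alternative tried, and the first was lost when the error came from the compared arrays only, with replicate 3 alone for 27.5°C (-0.25), in limma's moderated test, and without any one of 9 arrays (-0.37 to -0.24), namely replicate 2 of 27.5°C, replicates 1 and 3 of 29.0°C and replicate 3 of 31.5°C after 12 hours, all arrays of 27.5°C and replicate 3 of 29.0°C and of 31.5°C after 48 hours. By 48 hours it stood at 0.04, 0.01 and 0.01 at 27.5°C, 0.26, 0.07 and 0.21 at 29.0°C, and 0.20, 0.40 and 0.28 at 31.5°C. The full rise was 0.27, below the limit of 0.30.

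**Figure D4:**
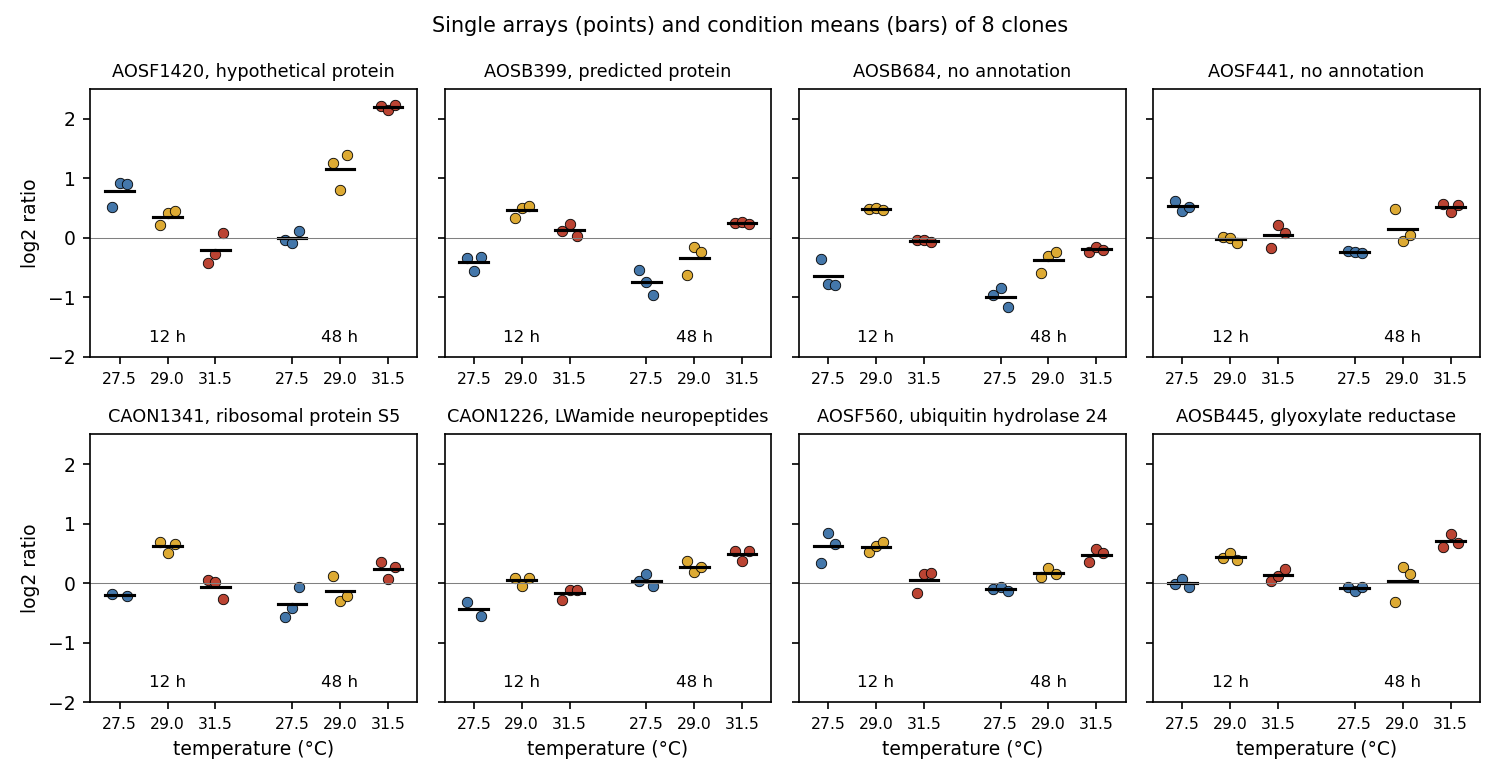
Log2 ratio over the pooled reference of 8 clones on single arrays (points) with the mean of each condition (bars), at 27.5, 29.0 and 31.5°C after 12 hours (left of each panel) and 48 hours (right). After 48 hours all 8 climb with temperature, as chosen. After 12 hours AOSB399, AOSB684, CAON1341, CAON1226 and AOSB445 are highest at 29.0°C, while AOSF1420 has its lowest mean at 31.5°C and AOSF560 falls there by 0.57 from 27.5°C.

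The largest rise after 48 hours was that of AOSF1420, listed as a hypothetical protein with its match in the sea anemone Nematostella vectensis. It stood at -0.04, -0.08 and 0.11 at 27.5°C, 1.26, 0.81 and 1.40 at 29.0°C, and 2.21, 2.14 and 2.24 at 31.5°C. The groups were far apart on every array, with steps of 1.16 and 1.04 on the log2 scale against a limit of 0.50 and a 4.59-fold rise in all. After 12 hours the order was the reverse, with 0.52, 0.92 and 0.90 at 27.5°C, 0.21, 0.42 and 0.45 at 29.0°C, and -0.42, -0.27 and 0.08 at 31.5°C. The ranges of the 3 temperatures did not overlap. The difference of -0.98 at 31.5°C was called and kept its call in every alternative, while the -0.42 at 29.0°C stayed within the limit. Between 31.5°C and 29.0°C the difference of -0.56 was called, but not without replicate 2 or 3 of 29.0°C or replicate 1 or 2 of 31.5°C (-0.53 to -0.45), after scaling of the arrays to a common spread (-0.39) or when the error came from the compared arrays only. The clone with the steepest rise after 48 hours was thus among those with the largest fall after 12 hours.

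CAOO861 and CAON779, which do not stand in the study's lists, had the next largest rises after 48 hours with 1.42 and 1.09, and neither was called. For CAOO861 the ratios were -0.39, -0.34 and -1.36 at 27.5°C, -0.73, -0.11 and -0.11 at 29.0°C, and 0.80, 1.20 and 0.17 at 31.5°C, and the limit was 1.63. For CAON779 they were -0.71, -0.70 and -1.09, then -1.06, -0.42 and -0.60, then 0.38, 0.32 and 0.07, with a limit of 1.30. Such wide limits came from 27.5°C after 12 hours, where replicate 1 read 1.20 against -1.14 and -0.67 in CAOO861 and 1.25 against -0.76 and -0.61 in CAON779. At 29.0°C after 12 hours both were high, at 0.63, 1.58 and 1.00 in CAOO861 and at 0.96, 0.62 and 0.77 in CAON779.

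AOSB399, a predicted protein with its match in Nematostella, was called on each of the steps after 48 hours. It stood at -0.54, -0.74 and -0.96 at 27.5°C, -0.62, -0.15 and -0.23 at 29.0°C, and 0.25, 0.26 and 0.24 at 31.5°C, a full rise of 1.00. After 12 hours it was at -0.34, -0.55 and -0.31 at 27.5°C, 0.34, 0.51 and 0.54 at 29.0°C, and 0.12, 0.23 and 0.04 at 31.5°C, with no overlap between temperatures. The differences of 0.86 at 29.0°C and 0.53 at 31.5°C from 27.5°C both passed the limit of 0.39, the second not with replicate 3 alone for 27.5°C (0.44). AOSB399, AOSF1420 and AOSF778 were the only clones of the 92 called on both steps after 48 hours, and in AOSB399 the first step of 0.41 was no longer called without replicate 1 of 31.5°C after 12 hours, replicate 2 or 3 of 27.5°C or of 29.0°C, or any one array of 31.5°C after 48 hours (0.30 to 0.41). That call was also lost when the error came from the compared arrays only and in limma's moderated test. It was lost too with replicate 3 alone for 27.5°C after 12 hours and with the replicate number as a block.

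AOSF778, listed without annotation, stood after 48 hours at 0.06, 0.14 and 0.18 at 27.5°C, 0.64, 0.44 and 0.56 at 29.0°C, and 1.07, 1.06 and 1.15 at 31.5°C. Its full rise of 0.97 was 1.95-fold, and its first step of 0.42 was not called without replicate 1 or 2 of 27.5°C or replicate 1 or 3 of 29.0°C (0.37 to 0.43), nor in limma's moderated test. After 12 hours it was at 0.39, 0.11 and 0.05 at 27.5°C, 0.22, 0.03 and -0.25 at 29.0°C, and -0.39, -0.15 and -0.12 at 31.5°C. It was lower at 31.5°C than at 27.5°C by a difference of -0.40, against a limit of 0.37. That call was lost without replicate 1 of 27.5°C or replicate 1 of 31.5°C (-0.32 to -0.30), with replicate 3 alone for 27.5°C (-0.27) and when the error came from the compared arrays only.

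AOSB684 had the largest called rise at 29.0°C after 12 hours, and it is also among those with the largest rises after 48 hours. At 12 hours the values were -0.36, -0.77 and -0.79 at 27.5°C, 0.48, 0.50 and 0.47 at 29.0°C, and -0.04, -0.03 and -0.08 at 31.5°C. The 3 temperatures were clear of each other, with 1.13 (2.18-fold) at 29.0°C and 0.59 at 31.5°C above 27.5°C and -0.53 between 31.5°C and 29.0°C, all beyond the limit of 0.36. All of these calls held in every alternative tried. Its ratios after 48 hours were -0.96, -0.85 and -1.15, then -0.59, -0.30 and -0.24, then -0.23, -0.15 and -0.20, with 77.1% of the rise of 0.80 in the first step.

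AOSF433 had the largest called rise at 31.5°C after 12 hours and was next after AOSB684 at 29.0°C. It stood at 0.06, -0.73 and -0.96 at 27.5°C, 0.31, 0.61 and 0.70 at 29.0°C, and 0.68, 0.11 and 0.19 at 31.5°C. Replicate 1 of 27.5°C was far above the others of its condition and still below every warmer array. The differences were 1.08 at 29.0°C and 0.87 at 31.5°C against a limit of 0.75, and neither was called when the error came from the compared arrays only. The second was also lost without replicate 2 or 3 of 27.5°C or replicate 1 of 31.5°C (0.66 to 0.78). After 48 hours it rose by 0.93, from -0.93, -1.11 and -1.02 at 27.5°C through -1.06, -0.50 and -0.52 at 29.0°C to -0.13, -0.01 and -0.13 at 31.5°C.

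AOSF757 was the only clone of the 92 that combined a graded rise with a call at 31.5°C at both time points. The arrays of 12 hours gave -0.92, -0.47 and -0.70 at 27.5°C, 0.00, -0.01 and -0.28 at 29.0°C, and -0.01, -0.13 and 0.17 at 31.5°C. Both warmer conditions lay above 27.5°C on every array and overlapped each other, with 0.60 and 0.71 above 27.5°C against a limit of 0.49. The value at 29.0°C was not called without replicate 1 of 27.5°C, replicate 1 of 29.0°C or replicate 2 of 29.0°C (0.49 to 0.55), with replicate 3 alone for 27.5°C (0.60) or when the error came from the compared arrays only. After scaling of the arrays to a common spread the differences were 0.37 and 0.47 and neither was called. At 48 hours the values were 0.18, 0.07 and 0.05, then -0.17, 0.50 and 0.29, then 0.73, 0.94 and 0.81, a rise of 0.73.

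The falls after 12 hours were led by AOSF696 and AOSF441 at 29.0°C and by AOSF1331 and AOSF1420 at 31.5°C. AOSF441, listed without annotation, stood at 0.62, 0.45 and 0.51 at 27.5°C, 0.02, -0.01 and -0.09 at 29.0°C, and -0.16, 0.21 and 0.09 at 31.5°C. Both warmer conditions were below 27.5°C on every array, by differences of -0.55 and -0.48 against a limit of 0.38. The first was lost with replicate 3 alone for 27.5°C (-0.54). The second was lost in that case too (-0.47), without replicate 1 of 27.5°C or of 31.5°C (-0.44 to -0.38) and after scaling of the arrays to a common spread (-0.31). AOSF441 and AOSF1157 were the only clones of the 92 called lower at both temperatures after 12 hours. After 48 hours AOSF441 rose by 0.75, from -0.22, -0.24 and -0.26 through 0.49, -0.06 and 0.04 to 0.56, 0.43 and 0.55.

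AOSF696, listed without annotation, stood after 12 hours at 0.09, 0.25 and 0.89 at 27.5°C, -0.32, -0.08 and -0.11 at 29.0°C, and -0.05, -0.03 and 0.05 at 31.5°C. The spread at 27.5°C was wide, and the difference of -0.58 at 29.0°C passed the limit of 0.47, but not without replicate 1 of 29.0°C (-0.50) or when the error came from the compared arrays only. After 48 hours it rose by 0.58, from 0.31, 0.16 and 0.27 through 0.53, 0.43 and 0.33 to 0.81, 0.80 and 0.85, and this was not called without replicate 2 of 27.5°C after 48 hours (0.53). AOSF1331, which is not in the study's lists, had the largest fall after 12 hours, from 0.19, 0.83 and 1.23 at 27.5°C to -1.48, 0.10 and 0.09 at 31.5°C. The difference of -1.18 passed a limit of 1.08, but without replicate 1 of 31.5°C, the lowest array, it was -0.66. The call was lost without replicate 2 or 3 of 27.5°C (-1.14 to -0.94), with means of linear ratios (-1.08) and when the error came from the compared arrays only. At 29.0°C after 12 hours it stood at 0.46, 0.41 and 0.30, and its rise after 48 hours of 0.49 was below the limit.

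The other clones among the largest rises after 48 hours were AOSF941, CAON1282 and CAON1369, each listed without annotation. CAON1369 rose by 0.99, from -0.56, -0.56 and -0.95 through -0.80, -0.23 and -0.29 to 0.32, 0.36 and 0.20, against a limit of 0.84, and without replicate 3 of 27.5°C or replicate 1 or 2 of 31.5°C after 48 hours it was 0.86 to 0.97 and not called. AOSF941 rose by 0.78, from 0.05, 0.04 and 0.17 through 0.78, 0.14 and 0.29 to 0.88, 0.87 and 0.85. CAON1282 rose by 0.77, from -0.09, -0.10 and -0.60 through -0.59, 0.13 and 0.01 to 0.66, 0.50 and 0.38. After 12 hours none of these 3 was called in any comparison. CAON1369 and CAON1282 had their highest means there at 29.0°C, 0.60 and 0.47, and AOSF941 had its highest at 27.5°C, 0.86.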

How the data were processed

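Each of 6 RNA samples was hybridised on 3 two-dye arrays. The authors deposited spot intensity values from TIGR Spotfinder 2.2.4 with the background subtracted, and, for each clone on each array, 1 log2 ratio (Cy5 against Cy3) after print-tip LOWESS in TIGR MIDAS 2.19. How duplicate spots were combined is not given in the sources used here. The base was taken as log2 because the interquartile range of the deposited table was 0.89 to 1.07 times that of log2 channel ratios after a print-tip lowess of the spots. Spots carry no clone names, so the table was used for all clones, with no further normalization. The number of technical arrays limits the precision.

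The 92 clones and the lists were chosen with earlier results of these data known. Intervals used 1 residual spread per clone with up to 12 degrees of freedom. No p-value is given, because the arrays of a condition share 1 RNA isolation. The criterion was tested on simulated data with the same scatter in all 6 conditions of a clone. The real scatter differed between conditions, so that test cannot show how the criterion behaves there. Clones named are those with a protein name, the 10 largest rises after 48 hours among the rest, the 2 largest called rises and falls after 12 hours at each warmer temperature, and the 2 clones on each side of a threshold. Alternatives were other scalings, filters, thresholds and spreads, a replicate block, leaving out each array, and limma 3.58.1 (R 4.3.3) with Benjamini-Hochberg adjustment at 0.05. Python 3.11.15, numpy 2.4.6, pandas 2.3.3 and matplotlib 3.10.9 were used.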

Additional observations from a re-analysis of the deposited data

Results flagged for a closer look

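In 12 of the 92 clones, 10 of them measured on every array, all arrays of a warmer temperature lay below all arrays of 27.5°C after 12 hours and above all of them after 48 hours. The difference between the time points was not tested, since each condition is 1 RNA sample, and the values after 48 hours chose the clones. After 12 hours, 9 of the 80 clones measured on every array had all arrays of 31.5°C below those of 27.5°C (11.25%, against 11.5% of all). For 29.0°C it was also 9 of 80 (11.25%, against 17.1% of all). The 12-hour part of the crossing was thus no commoner than among all clones measured on every array. For 31.5°C against 27.5°C there were 11 such clones. AOSF1420 (hypothetical protein) had a log2 difference of -0.98 after 12 hours and was 4.59-fold higher after 48 hours. The log2 differences after 12 and 48 hours were -1.18 and 0.49 in AOSF1331, -0.70 and 0.41 in integral membrane transporter protein (CAON1001), and -0.58 and 0.27 in surface antigen (AOSF1157). They were -0.57 and 0.58 in ubiquitin carboxyl-terminal hydrolase 24 (AOSF560), -0.48 and 0.75 in AOSF441, -0.42 and 0.58 in AOSF696, and -0.40 and 0.97 in AOSF778. In AOSF1318 they were -0.46 and 0.71, in AOSF649 -0.47 and 0.25, and in CAON993 -0.39 and 0.35. For 29.0°C against 27.5°C, the same crossing was found in 6 clones, in AOSF1420 with -0.42 and 1.16, in AOSF441 with -0.55 and 0.40, in AOSF696 with -0.58 and 0.18, in AOSF1157 with -0.34 and 0.16, in AOSF397 with -0.33 and 0.17, and in AOSF649 with -0.26 and 0.14. AOSF1318, AOSF397, AOSF649 and CAON993 are named for this crossing, after their values were seen. In AOSF1157 and AOSF1318 the array of replicate 1 at 27.5°C after 12 hours had no value.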

How the results depend on the processing

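The median 12-hour differences over the clones kept their sizes within the spread of array medians in every alternative run. With 1 array left out at a time they were 0.13 to 0.22 for 29.0°C against 27.5°C, -0.07 to 0.08 for 31.5°C against 27.5°C and -0.25 to -0.14 for 31.5°C against 29.0°C. In the same way, the clones highest at 29.0°C after 12 hours numbered 49 to 58 and the clones kept by the rule 55 to 105. Those with all arrays of 31.5°C below those of 29.0°C after 12 hours numbered 33 to 42. That count cannot fall when an array is left out, so its range does not test how firm it is. Calls after 12 hours ranged from 10 to 26 higher and 2 to 7 lower for 29.0°C against 27.5°C, from 5 to 12 higher and 5 to 10 lower for 31.5°C against 27.5°C, and from 4 to 13 lower for 31.5°C against 29.0°C, with 1 higher throughout. After 48 hours they ranged from 2 to 9, 26 to 49 and 5 to 21 for the first step, the full range and the second step. The shares of all tested clones moved as well, from 4.91% to 9.65% for higher at 29.0°C than at 27.5°C after 12 hours. For the full range after 48 hours they went from 5.73% to 12%. Scaling of the arrays to 1 common median absolute deviation gave, after 12 hours, 10 clones higher at 29.0°C (3.46% of all) and 5 higher at 31.5°C (4.64% of all) than at 27.5°C. It gave 2 lower at 31.5°C than at 29.0°C (4% of all), and 14, 71 and 25 calls after 48 hours (6.01%, 16.7% and 11.6% of all). An error from the compared arrays only gave, at 29.0°C against 27.5°C after 12 hours, 8 higher (4.19% of all) and 1 lower (5.82% of all). For 31.5°C against 27.5°C it gave 4 higher (3.64% of all) and 3 lower (2.91% of all). After 48 hours it gave 80 and 21 calls for the full range and the second step (22.2% and 8.1% of all). Means of linear ratios gave 5 lower at 31.5°C than at 27.5°C after 12 hours (9.65% of all). The moderated test of limma gave 2 calls on the first step after 48 hours (1.46% of all). Steps of at least 0.2 in the rule left 27 clones. Chosen after seeing the data, replicate 3 alone for 27.5°C after 12 hours gave 11 lower at 31.5°C than at 29.0°C (10.3% of all). It gave 53 and 21 calls for the full range and the second step after 48 hours (12.9% and 9.83% of all). The cause of these shifts was not tested. Over all alternatives, the differences of the clones named here kept their side of the criterion 4111 times. A call was lost 126 times and gained 113 times, and no called direction reversed. Only 53 of these differences were called in the main run, so the 4111 hold mostly differences that were called neither there nor in the alternative.

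Replicate numbers did not pair the arrays: deviations from the condition means correlated between -0.16 and 0.26 over 45 pairs with the same number and between -0.27 and 0.23 over 90 pairs with different numbers. With the replicate number as a block, the calls at 29.0°C against 27.5°C after 12 hours were 15 higher (7.1% of all) and 5 lower (11.3% of all). At 31.5°C against 27.5°C they were 8 higher (7.1% of all) and 6 lower (8.92% of all). Between 31.5°C and 29.0°C they were 1 higher (10.1% of all) and 7 lower (7.1% of all). After 48 hours they were 4, 33 and 12 (2.64%, 8.46% and 7.55% of all). Of the 53 calls of clones named here, 4 were lost under the block, those of CAON1001 at 31.5°C after 12 hours, AOSB399 and AOSF441 at 29.0°C after 48 hours and AOSC785 at 31.5°C after 48 hours, and the block changed no other of these calls.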
